A study of Caenorhabditis elegans with 12 samples.

Results

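The mir-80; mir-58 double mutant of Caenorhabditis elegans was set against the mir-58 single mutant, so that loss of mir-80 was the labelled difference in genotype. These genotypes supply 6 of the 12 RNA-seq samples of the series, 3 each, and all 16309 genes of the authors' deposited table were used. The double mutant was strain MT18409, which carries the deletion nDf53 on chromosome III together with mir-58(n4640) on IV. The single mutant was strain MT15024, with mir-58(n4640) alone, so both strains carry the n4640 allele. The other samples are the wild type N2 Bristol and a quadruple mutant that also lacks mir-81 and mir-82, strain MT15563, which carries nDf53, n4640 and nDf54 on the X chromosome. All were whole animals at the late L4 larval stage, fed on bacteria labelled with light lysine and arginine for a pair of generations and staged by the form of the vulva. The double mutant was harvested 6 h later than wild type and the quadruple mutant 15 h later, while mir-58 and wild type were taken 33 h after transfer to food. Genotype, strain and time of collection therefore change together, and their parts in any difference below cannot be told apart.

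The miR-58 family is the nematode counterpart of the insect microRNA bantam. Its members have the same seed, the stretch of a microRNA that pairs with target messengers, and can therefore act on the same targets. miR-58 itself is among the most abundant microRNAs of the worm, and miR-80 is another abundant member. Animals that lack several members are small, slow and defective in forming dauer larvae, while loss of a single member has mild effects.

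The value given for a gene is a difference on the log2 scale: its log2 fold change against wild type in the double mutant minus that in mir-58, both from the authors' deposited table. A difference of 1 means that the level was 2-fold higher in the double mutant than in mir-58. The wild type cancels in this subtraction as long as the deposited values are plain ratios. The sources used here do not say whether they were moderated. The table has no values per sample, so the spread between replicates and the depth are unknown here and no difference has a test. A gene is counted as higher or lower when its difference reached 2-fold. The adjusted p-values that are quoted belong to the authors' comparisons with wild type, and a gene is called in one of these when its adjusted p was under 0.05. In whole animals, fewer cells of a type and less RNA per cell cannot be told apart.

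Relative to mir-58, 2276 genes (14.0% of those listed) were at least 2-fold higher in the double mutant and 663 (4.07%) at least 2-fold lower. The median difference was 0.04, and 82.0% of genes lay within 2-fold. The higher side had a long tail. At a difference of 4 or more there were 878 genes, against 6 genes at -4 or less. Differences of 6 or more were found for 363 genes. With the added condition that the gene was called in the double mutant or in mir-58, 1452 higher (8.90%) and 217 lower (1.33%) genes remained.

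**Figure D1:**
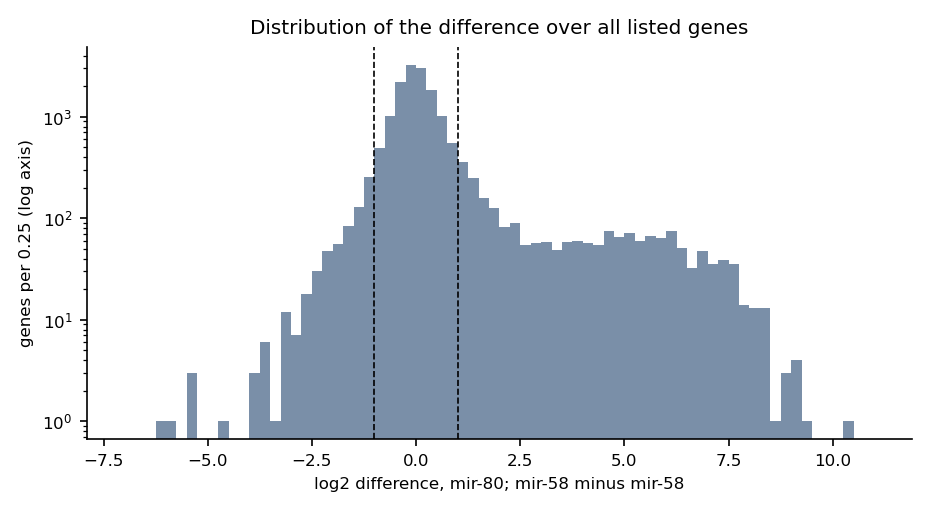
Number of genes (log axis) by log2 difference between the double mutant and mir-58, in steps of 0.25, with dashed lines at 2-fold. The 2276 genes right of the upper line form a tail that reaches 10.33, while the lowest value on the left is -6.22.

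The large positive differences were made of opposite deviations from wild type. Among the 363 genes at 6 or more, the median log2 fold change in the authors' deposited table was 3.73 in the double mutant and -3.17 in mir-58. Of the 2276 higher genes, the authors' deposited table calls 1345 higher in the double mutant (59.1%, against 10.5% of all genes) and 3 lower, against 5.86% of all genes. In mir-58, 550 of them were called lower (24.2%, against 5.79% of all genes) and 21 higher, against 1.65% of all genes. The 663 lower genes had medians of -1.09 in the double mutant and 0.42 in mir-58 in the authors' deposited table. The difference itself chose these genes, so the counts describe them and test nothing. Close to the limit on the higher side, T06E6.15 and W04A8.4 stood at 1.0, and F58G11.3 and K10G6.5 at 0.99. On the lower side C06E2.5 and Y40C5A.1 stood at -1.0, and C03G6.5 and C15F1.1 at -0.99.

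Genes of sperm had the highest median difference of the 31 lists. Hermaphrodites make sperm during the L4 stage and then switch to oocytes. Of 59 listed sperm genes, 56 were at least 2-fold higher in the double mutant than in mir-58 and none was lower, with a median difference of 6.39 against 0.04 for all genes. Major sperm protein (msp) genes encode the protein whose filaments move the worm's sperm. They are near-identical copies, so the value of each is uncertain. All 16 msp genes were higher, with differences of 5.79 to 9.49. In the authors' deposited table the highest of them, msp-81, was at 4.60 in the double mutant (adjusted p = 6.28e-36) and -4.89 in mir-58 (adjusted p = 5.92e-08). For msp-19 the authors' deposited table gives 4.72 in the double mutant and -4.35 in mir-58. Leaving the msp genes out, 40 of 43 sperm genes were higher, at a median of 4.74.

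Other sperm genes covered several steps of the pathway. The phosphatase genes gsp-3 and gsp-4, needed for sperm meiosis and motility, were at 3.46 and 3.66 in the double mutant and at -3.63 and -3.96 in mir-58 in the authors' deposited table. Their differences were 7.09 and 7.62. The paternal-effect gene spe-11 had a difference of 7.72, and spe-9, whose product on the sperm surface is needed for fertilization, one of 3.85. In the authors' deposited table spe-9 stood at 2.41 in the double mutant and -1.44 in mir-58, where it was not called (adjusted p = 0.0941). The members that stayed within 2-fold were spe-29, try-5 and spe-39, at 0.51, 0.47 and 0.26. The lowest of these, spe-39, has roles in vesicle traffic in other tissues too. Genes outside the list, chosen after their values were seen, had values of the same size. The sperm chromatin gene spch-1 (listed as C04G2.8) had a difference of 7.92. For comp-1 (F37E3.3), a gene of sperm competition, it was 7.42, and for alg-3 (T22B3.2), an Argonaute gene of the male germline, 5.70.

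Oocyte and eggshell genes were also higher, by less. Of 36 listed genes, 22 were at least 2-fold higher in the double mutant than in mir-58 and none was lower, with a median of 1.36. A pair of genes stood apart from the rest: perm-4 and perm-2 (listed as C44B12.5 and C44B12.1), of the eggshell's permeability barrier, with differences of 7.42 and 6.81. The first was at 3.22 in the double mutant and -4.20 in mir-58 in the authors' deposited table. Both are made in somatic tissue, unlike most genes of this list. All others of the list lay at 2.32 or less. The eggshell proteoglycan genes cpg-3 and cpg-1 had differences of 2.32 and 2.03. For the yolk receptor gene rme-2 the authors' deposited table gives 1.02 in the double mutant and -0.68 in mir-58, and for the oocyte RNA-binding gene puf-5 it gives 1.47 and -0.48. The lowest member was lin-41: this gene of oocyte growth, which also acts in larval timing, was at -0.01 in the double mutant and 0.97 in mir-58 in the authors' deposited table, a difference of -0.98.

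Yolk protein genes are expressed in the intestine of adult hermaphrodites. All 5 listed members were at least 2-fold higher in the double mutant than in mir-58, at a median of 3.87. The authors' deposited table gives vit-6 at 2.35 in the double mutant (adjusted p = 8.09e-17) and -2.26 in mir-58 (adjusted p = 3.48e-15). For vit-2 the authors' deposited table has 1.70 in the double mutant and -2.17 in mir-58. The smallest difference was that of vit-1, at 1.45. By the authors' deposited table it was at 0.30 in the double mutant (adjusted p = 0.648) and -1.15 in mir-58 (adjusted p = 3.57e-07), so this difference came mostly from the mir-58 side. The gene vit-4 was called in neither mutant (difference 2.27), and vit-3 (5.86) and vit-4 are close copies of each other.

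Earlier steps of the germline differed less. Of 33 genes of germline proliferation and P granules, 8 were higher and none lower, with a median of 0.62. Of 37 meiosis genes, 9 were higher and none lower, with a median of 0.81. These shares (24.2% and 24.3%) stood above the 14.0% of all genes, and the medians above 0.04. The P granule gene pgl-3 had a difference of 1.39, with 0.42 in the double mutant and -0.97 in mir-58 in the authors' deposited table. For syp-1, of the synaptonemal complex that holds paired chromosomes together, the difference was 1.34. The largest values were those of nos-2 (2.89), a Nanos gene of primordial germ cells, and of lab-1 (2.92, listed as C03D6.6), which protects meiotic cohesion. Of 12 listed zygotic embryo genes none was higher and 1 was lower (8.33%, against 4.07% of all genes), at a median of -0.01. The genes end-1 and end-3, of embryonic gut fate, were at 0.89 and 0.42.

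**Figure D2:**
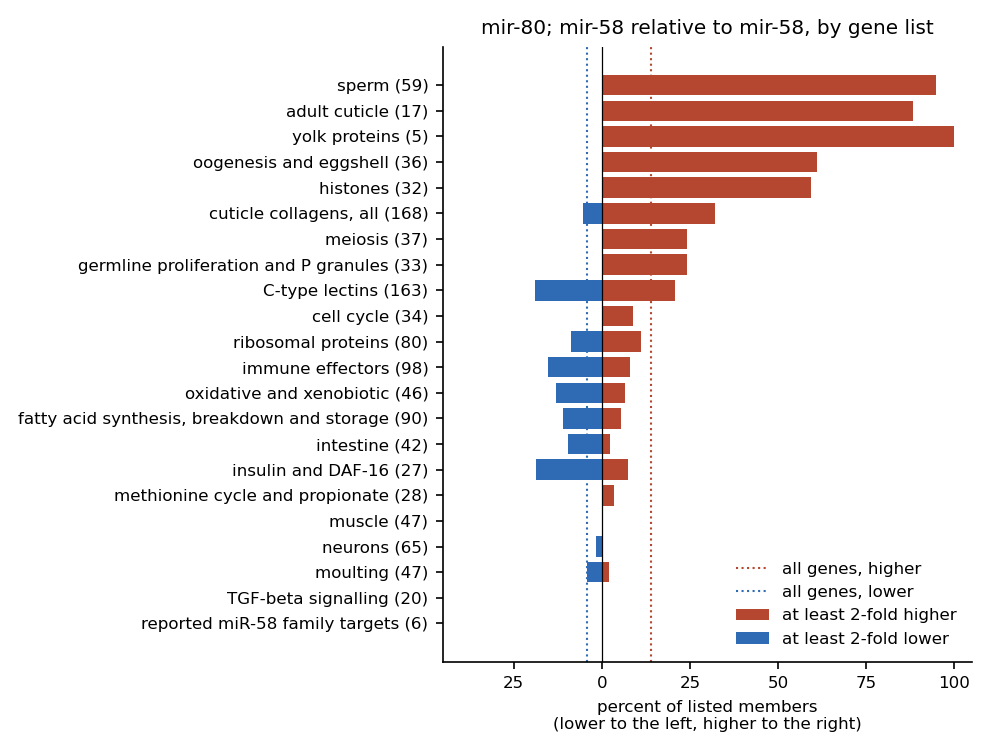
Percent of the listed members of 22 gene lists that were at least 2-fold higher (red, to the right) or lower (blue, to the left) in the double mutant than in mir-58, with the list size in brackets and dotted lines at the 14.0% and 4.07% of all genes. Sperm, adult cuticle, yolk, oocyte and histone lists extend far to the right, and muscle, TGF-beta and reported target lists have no member past 2-fold. Most adult cuticle members were taken from earlier results of these data.

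Listed genes of the adult cuticle were also higher in the double mutant. Collagens are the main proteins of the cuticle, and a new set is made at each moult. Of 17 listed adult cuticle genes, 15 were at least 2-fold higher in the double mutant and none was lower, at a median of 6.34. Most members of this list were taken from earlier results of these data, so its direction is not independent evidence. The 5 members taken from general knowledge were all higher, with differences of 3.78 to 8.01. Their median was 4.43, below the 6.39 of the sperm list. This subset was set apart after the data were seen, so it is not independent evidence either. For col-19, a standard marker of the adult epidermis, the authors' deposited table gives 4.03 in the double mutant (adjusted p = 5.88e-22) and -3.98 in mir-58 (adjusted p = 6.85e-06). The blister genes bli-1 and bli-2, which encode collagens of the adult cuticle's struts, had differences of 4.42 and 4.43. In the authors' deposited table these stood at 0.79 and 1.26 in the double mutant and at -3.63 and -3.17 in mir-58. The transthyretin-related gene ttr-14 had the highest difference of all genes, 10.33, with 3.82 in the double mutant and -6.51 in mir-58 in the authors' deposited table. Among called members col-63 followed at 8.84, col-19 at 8.01 and col-120 at 7.64.

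Of all 168 listed cuticle collagens, 54 (32.1%) were higher and 9 (5.36%) lower, and the median was 0.19. The higher share stood above the 14.0% of all genes, and the lower share was near their 4.07%. In mir-58 the authors' deposited table calls 83 of the 168 lower, against 5.79% of all genes, and 1 higher, against 1.65%. In the double mutant it calls 43 lower, against 5.86% of all genes, and 34 higher, against 10.5%. Without the adult cuticle and moulting lists, 40 of 153 (26.1%) were higher and 9 (5.88%) lower. The higher ones outside the adult list included col-60 at 8.34, col-70 at 8.16 and col-88 at 8.09. Of all 168 collagens 96 were called in either mutant, against 18.9% of all genes, and of the 9 lower ones 5 were. These 5 were col-90 (-1.86), col-41 (-1.6), col-54 (-1.36), col-156 (-1.1) and col-17 (-1.02), named after their values were seen. For col-90 the authors' deposited table gives -2.27 in the double mutant and -0.41 in mir-58. None of the 6 furrow collagens, the subset that marks the circular furrows of the cuticle, passed 2-fold, and their differences ran from 0.20 to 0.55. Of 44 cuticlins and apical matrix genes 4 (9.09%) were higher and 2 (4.55%) lower, at a median of 0.04. The cuticlin gene cut-1 was at -1.94 in the double mutant and -3.49 in mir-58 in the authors' deposited table, so it was below wild type in both. Moulting genes gave 1 higher (2.13%) and 2 lower (4.26%) members of 47, at a median of -0.10.

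Few heterochronic and vulval genes were past 2-fold. Of 18 heterochronic genes, which time larval fates, 1 was higher (5.56%, against 14.0% of all genes) and none lower, at a median of -0.02. This was mab-10, a cofactor of the larval-to-adult switch, at 0.74 in the double mutant and -0.72 in mir-58 in the authors' deposited table. Beside lin-41, the early-fate gene hbl-1 and the nuclear receptor gene daf-12 had differences of -0.94 and -0.66. In the authors' deposited table hbl-1 stood at -0.22 in the double mutant and 0.72 in mir-58. The genes lin-41, hbl-1 and daf-12 were called higher in mir-58 there, 3 of 18 against 1.65% of all genes. At 1.5-fold, 4 of the 18 genes were lower. Among 25 genes of the vulva and uterine seam, the tissue by which the animals were staged, none was higher. In this list 1 gene was lower (4.0%, against 4.07% of all genes), and the median was 0.00. The hypodermis and seam list of 25 genes had no member past 2-fold.

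**Figure D3:**
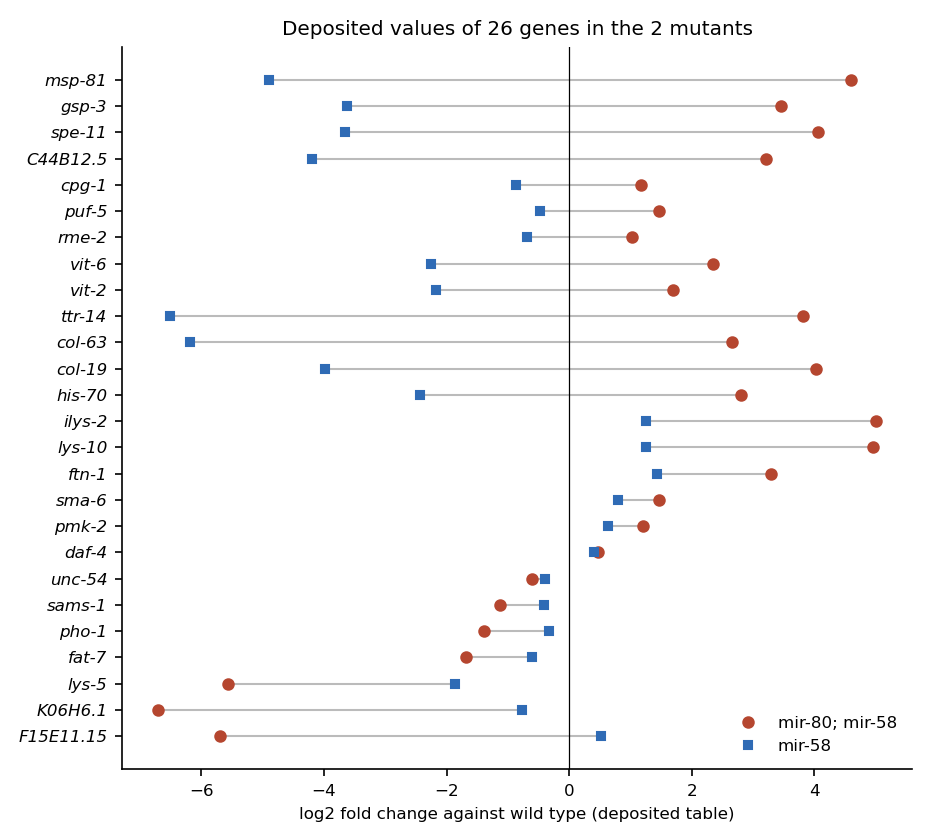
Log2 fold change against wild type in the authors' deposited table for 26 genes in the double mutant (red circles) and in mir-58 (blue squares), from sperm genes at the top to strongly lower genes at the bottom. For msp-81 the symbols lie at 4.60 and -4.89, on opposite sides of wild type, while sma-6 lies at 1.46 and 0.79, on the same side.

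Histone genes were higher in the double mutant. Of 32 listed members, 19 (59.4%) were at least 2-fold higher and none was lower, at a median of 1.32. The list medians in the authors' deposited table were 1.12 in the double mutant and -0.08 in mir-58, so here the difference lay mostly in the double mutant. The H3 variant gene his-70 stood apart at 5.24, with 2.80 in the double mutant and -2.44 in mir-58 in the authors' deposited table. Replication-dependent histone genes are near-identical copies, so the value of each is uncertain. Of the 32 genes, 9 were called in either mutant, against 18.9% of all genes, and 6 of the 19 higher ones were among them. Among 34 cell cycle genes 3 (8.82%, against 14.0% of all genes) were higher and none lower, with a median of 0.32. The B-type cyclin genes cyb-2.2 and cyb-1 had differences of 1.82 and 0.93.

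The reported targets of the family stayed within 2-fold between the mutants, as did 82.0% of all genes. With 6 listed genes on the target list, this does not set them apart. Their median difference was 0.13, against 0.04 for all genes, and 5 of the 6 were above 0. The genes sma-6 and pmk-2 lay above the upper quartile of all genes, 0.45. The largest difference was that of sma-6, which encodes a type I TGF-beta receptor that controls body size. In the authors' deposited table sma-6 was at 1.46 in the double mutant (adjusted p = 5.43e-07) and 0.79 in mir-58 (adjusted p = 0.00767), a difference of 0.67. For pmk-2, a p38 kinase gene, the authors' deposited table gives 1.2 in the double mutant and 0.63 in mir-58, a difference of 0.57. The type II receptor gene daf-4 and the type I receptor gene daf-1 of the dauer pathway had differences of 0.07 and 0.12. The acetyltransferase gene cbp-1 was at 0.14, and the ligand gene dbl-1 at -0.15. The cell death gene egl-1, also on the list, was not analysed here.

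Around these targets, none of 20 TGF-beta signalling genes passed 2-fold, at a median of 0.01, where 82.0% of all genes lay within 2-fold. The glypican gene lon-2, a negative regulator of body size, was at -1.07 in the double mutant and -0.55 in mir-58 in the authors' deposited table. In the p38 pathway 1 of 12 genes was lower (8.33%, against 4.07% of all genes) and none was higher (median -0.04). In the microRNA pathway itself none of 33 genes passed 2-fold, and the median was 0.06. The Dicer gene dcr-1 was at 0.70 in the double mutant and 0.63 in mir-58 in the authors' deposited table.

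Intestinal and metabolic genes lay below zero as groups, mostly by less than 2-fold. This was not particular to them, since the medians were -0.26 for muscle, -0.29 for neurons and -0.26 for immune effectors. The intestine list had a median of -0.49. Of its 42 genes 4 (9.52%, against 4.07% of all genes) were at least 2-fold lower and 1 (2.38%, against 14.0%) was higher. Its lower members included the acid phosphatase gene pho-1, at -1.39 in the double mutant and -0.33 in mir-58 in the authors' deposited table, a difference of -1.06. The gut actin gene act-5 was at -0.99. The gut regulator elt-2 stood at -0.02, and the ferritin gene ftn-1, which stores iron, was higher by 1.86. For ftn-1 the authors' deposited table gives 3.30 in the double mutant and 1.44 in mir-58. Without members of other lists, 1 of 29 intestinal genes (3.45%) was lower and none was higher (median -0.48).

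Of 90 genes of fatty acid synthesis, breakdown and storage, 10 (11.1%) were lower, against 4.07% of all genes. Of the same genes 5 (5.56%) were higher, against 14.0% of all genes, and the median was -0.29. The lower side held desaturase and elongase genes. The authors' deposited table gives fat-5 at -1.41 in the double mutant and -0.02 in mir-58, and elo-5 at -1.93 and -0.46. The acyl-CoA synthetase gene acs-2, of mitochondrial fatty acid breakdown, had a difference of -1.4. The lysosomal lipase gene lipl-3 had the lowest difference of the list, -3.05, with -2.17 in the double mutant and 0.88 in mir-58 in the authors' deposited table. The highest members were acs-18 (8.29, listed as R09E10.3), acdh-8 (7.18), acs-15 (7.03, listed as R07C3.4) and elo-7 (5.16), in the range of the sperm genes. The median of 28 methionine cycle and propionate genes was -0.36. None of them was lower by 2-fold and 1 was higher (3.57%, against 14.0% of all genes). The S-adenosylmethionine synthetase gene sams-1 was at -1.13 in the double mutant and -0.41 in mir-58 in the authors' deposited table. The higher member was cth-1 (1.51, listed as F22B8.6), a cystathionine lyase gene.

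Defence genes were found in both directions. Of 98 immune effector genes 8 (8.16%, against 14.0% of all genes) were higher and 15 (15.3%, against 4.07%) lower, at a median of -0.26. The invertebrate-type lysozyme gene ilys-2 was at 5.01 in the double mutant and 1.26 in mir-58 in the authors' deposited table, and lys-10 at 4.96 and 1.26. In contrast lys-5 had a difference of -3.70, with -5.56 in the double mutant and -1.86 in mir-58 in the authors' deposited table. The lysozyme gene lys-6 was at -2.13, and the saposin-like gene spp-4 at -2.39. Among 163 C-type lectin genes, which encode secreted or membrane sugar-binding proteins, 34 (20.9%) were higher and 31 (19%) lower. The highest, clec-151 and clec-123, had differences of 7.73 and 7.53, in the range of the sperm genes. By the authors' deposited table clec-151 was at 3.64 in the double mutant and -4.09 in mir-58, and clec-123 at 3.21 and -4.32. The lower end held clec-9, which was at -0.30 in the double mutant and 3.37 in mir-58 in the authors' deposited table.

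Several other lists held lower members at a share above the 4.07% of all genes, and higher members at a share below their 14.0%. Of 46 oxidative and xenobiotic genes 3 (6.52%) were higher and 6 (13%) lower, with the glucuronosyltransferase gene ugt-63 at -2.06. Of 27 insulin and DAF-16 genes 2 (7.41%) were higher and 5 (18.5%) lower. The insulin-like peptide genes ins-37 and ins-11 were at 3.44 and 2.24, and ins-33 and ins-16 at -2.08 and -2.05. Of 80 ribosomal protein genes 9 (11.2%) were higher and 7 (8.75%) lower, at a median of -0.08. The extremes were rpl-42 at 5.81 and rpl-38 at -2.47. By the authors' deposited table rpl-38 stood at 0.37 in the double mutant and 2.84 in mir-58. Heat shock and unfolded protein genes were not among these lists, with 1 lower member of 27 (3.7%, below the 4.07% of all genes) and no higher one.

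Muscle and neuronal genes had few members past 2-fold, though most lay below zero (41 of 47 and 55 of 65). None of 47 muscle genes passed 2-fold, and their median was -0.26. Of 65 neuronal genes 1 (1.54%, against 4.07% of all genes) was lower and none was higher (median -0.29). The muscle myosin gene unc-54 was at -0.60 in the double mutant and -0.39 in mir-58 in the authors' deposited table. For the kinesin gene unc-104, whose product carries synaptic vesicle precursors along axons, the authors' deposited table gives 0.48 in the double mutant and 1.02 in mir-58. The medians of the 2 lists in the authors' deposited table were -0.42 in the double mutant and -0.15 in mir-58 for muscle, against 0.12 and 0.33 for neurons. As a check of tissue, the marker genes of muscle, neurons, intestine, hypodermis and germline were all listed, with differences of -0.99 to 0.83, those of oocytes lay between 0.38 and 1.70, and those of sperm lay between 3.85 and 7.62.

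The lowest differences were reached by few genes. Of the 12 lowest among called genes, 9 were on chromosome V, some of them neighbours of each other. This chromosome held 3442 of the 15569 placed genes and 218 of the 640 lower ones with a position. The lowest was pud-3 (listed as F15E11.15) at -6.22, where the authors' deposited table gives -5.70 in the double mutant (adjusted p = 1.26e-34) and 0.52 in mir-58 (adjusted p = 0.0973). Its neighbour pud-4 (F15E11.12) was at -4.51. K06H6.1 and K06H6.2 were at -5.94 and -5.34. The authors' deposited table lists K06H6.1 at -6.71 in the double mutant and -0.77 in mir-58. The carboxylesterase gene cest-1.1 (T02B5.1) and F58E6.4, both at -5.39, were called lower in the double mutant and higher in mir-58. The chitinase-like gene chil-28, at -3.88, differed on the mir-58 side, with 1.38 in the double mutant (adjusted p = 0.931) and 5.26 in mir-58 (adjusted p = 1.55e-05) in the authors' deposited table.

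The quadruple mutant and wild type share no sample with the double mutant and mir-58, so, as far as wild type cancels in the difference, their comparison is a separate set of measurements of a related contrast. In both contrasts the mutant with more lost microRNAs was also the later collected. Of the 2276 genes higher in the double mutant than in mir-58, the authors' deposited table calls 1402 higher in the quadruple mutant (61.6%, against 14.2% of all genes) and 7 lower. Of the 663 lower genes, 192 were called lower there (29%, against 9.82% of all genes) and 6 higher. Across the 16309 genes the correlation was r = 0.74 (Pearson) and rho = 0.63 (Spearman), given as a description, since genes are not independent replicates. The size of the values was not carried over in full. For the 363 genes at 6 or more, the median log2 fold change in the quadruple mutant was 3.71 in the authors' deposited table. The corresponding difference between the double mutant and mir-58 contains the deviation of mir-58 from wild type, which the quadruple comparison does not.

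**Figure D4:**
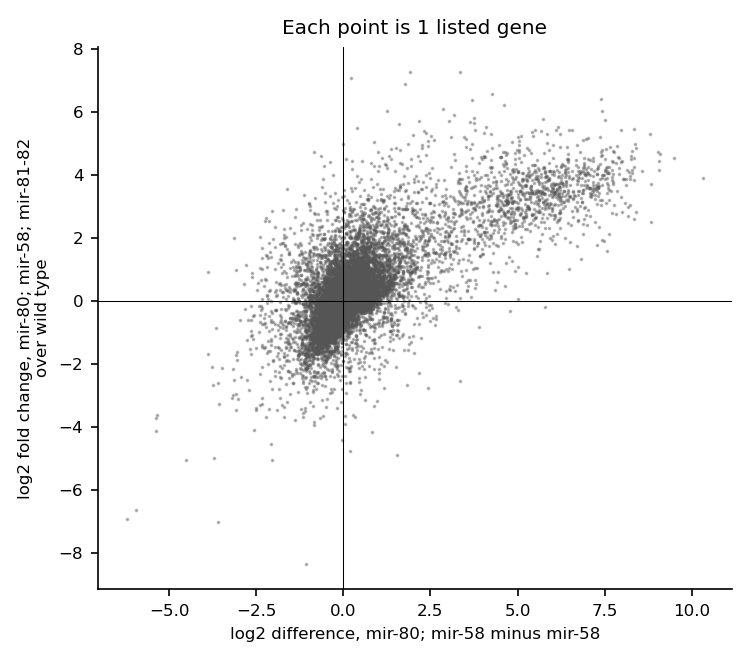
Log2 difference between the double mutant and mir-58 (x axis) against the log2 fold change of the quadruple mutant over wild type (y axis) for each of the 16309 genes. At the right, msp-81 lies at 9.49 on the x axis and 4.55 on the y axis, and at the left F15E11.15 lies at -6.22 and -6.90.

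Of the listed names, 15569 matched a RefSeq gene of the WBcel235 assembly. The share of higher genes was lowest on the X chromosome, a difference with no test. On X 6.57% of 2237 genes were at least 2-fold higher, against a highest share of 18.6% on chromosome IV, and the median was -0.16 on X against 0.02 to 0.11 on the autosomes. No gene of the sperm list was on X, and chromosome IV held 24 of them. Lower genes were most frequent on chromosome V (6.33%) and least frequent on III (2.01%). The nDf53 deletion of mir-80 is on chromosome III. Of the 10 listed genes nearest to mir-80, none was called in either mutant, against 18.9% of all genes, and 1 was past 2-fold, ZK637.4 at 1.07, against the 14.0% of all genes that were higher. The others ran from -0.24 to 0.57. With 10 genes these counts do not set the region apart from the rest. The microRNA itself is not a listed gene, so its loss was not measured here.

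**Figure D5:**
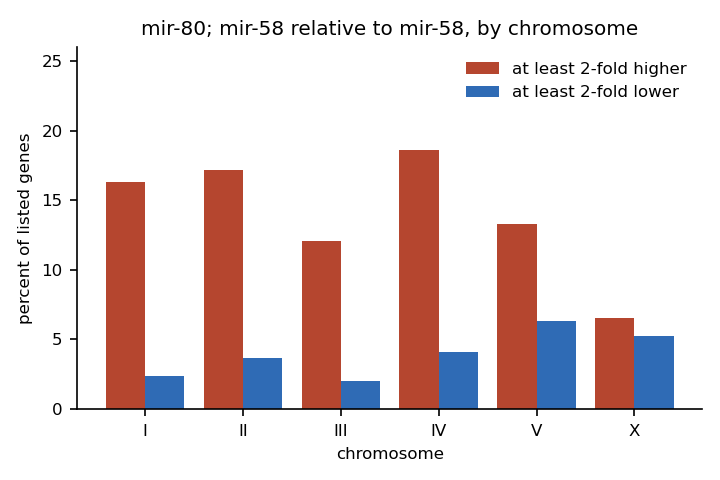
Percent of listed genes on each chromosome that were at least 2-fold higher (red) or lower (blue) in the double mutant than in mir-58. Higher genes reach 18.6% on chromosome IV and 6.57% on X, and lower genes 6.33% on V.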

How the data were processed

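The samples were whole late L4 animals, 3 in each of 4 genotypes, and the labels do not say whether replicates were separate cultures. The deposited table gives, for each of 3 mutants, the authors' log2 fold change against wild type, to 2 decimals, and the authors' adjusted p-value. The submitters' processing notes name DESeq as the authors' tool. Its version, any moderation of the fold changes, the aligner, the genome build and the method of adjustment are not given in the sources used here. The depth is unknown here.

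The log2 fold change of mir-58 was subtracted from that of the double mutant with Python 3.11.15 and pandas 2.3.3. Of the steps, only the counting of genes past a fold was tested on simulated data. No low-value filter was added. Counts of at least 2-fold stood in for calls, since no test was possible. The alternatives were other folds, centring, deposited calls and changed list members. Names and chromosomes came from RefSeq WBcel235, with 740 names unmatched.

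The members and the 31 lists were chosen with earlier results of these data known. Genes to name were picked by rule. Among called genes these were the 12 highest, the 12 lowest and up to 4 per list by absolute difference. All targets, the 10 genes nearest mir-80, genes at the 2-fold limit and leading family members were picked too. Not all of the picked genes are named in the text. Cell type markers were named too, and all further genes were chosen after their values were seen.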

Additional observations from a re-analysis of the deposited data

How the results depend on the processing

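The counts depended on the fold and on whether a deposited call was required. Genes higher in the double mutant numbered 1385 at 4-fold, 1452 with an adjusted p under 0.05 in either of the authors' comparisons, 1244 with one under 0.01 and 1348 with a call in the double mutant. Lower genes numbered 1747 at 1.5-fold, 130 at 4-fold and 217, 175 and 184 under these call rules in the same order. At 4-fold, higher members numbered 4 of oogenesis, 0 of intestine and 2 of histones, and lower members 3 of collagens, 2 of intestine and 2 of fatty acid genes. At 1.5-fold, lower members numbered 1 of oogenesis, 20 of collagens, 17 of intestine and 22 of fatty acid genes, and 3 intestinal genes were higher. With a call required, 5 collagens were lower and 6 histones higher. Centring on the median of all genes gave 1 lower oogenesis gene. Without members of other lists, 0 intestinal genes were higher and 1 lower. Reducing the adult cuticle list to general knowledge, an alternative chosen after seeing the data, left 5 higher members. The other 58 values for these results stayed within 1.5 times the reported count. For the remaining lists, 65 values did not, of which 30 lay above the reported count (29 at 1.5-fold) and 35 below it (23 at 4-fold, 12 with a call required). Among them, 28 meiosis genes were higher, and 8 methionine cycle and 4 heterochronic genes lower, at 1.5-fold. With a call required, 4 germline proliferation genes and 17 C-type lectins were higher and 15 C-type lectins lower. No paired analysis was possible because the table holds no values per sample, and leaving out replicates was not run for the same reason. Sequences were not analysed here.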

Other observations

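Among 160 families with a shared name prefix and at least 10 listed members, several outside the lists had a high median difference. The families and members in this section were named after their values were seen, beyond the leading families by rank. Of 12 snf genes, which encode sodium-dependent transporters, 7 were at least 2-fold higher in the double mutant than in mir-58. This was 58.3%, against 14.0% of all genes, and none was lower. The values were 7.10 for snf-2 and 6.70 for snf-4, and snf-11 was lowest at -0.44. Of 19 nep genes, which encode neprilysin-like peptidases, 10 (52.6%) were higher and 1 (5.26%, against 4.07% of all genes) lower, with nep-8 at 7.65. Of 25 pals genes, a family that includes regulators of the response to intracellular pathogens, 15 were higher and none lower. Their median log2 fold change in the authors' deposited table was 1.81 in the double mutant and 0.31 in mir-58, so their difference lay on the side of the double mutant. The family with the lowest median was asp, of aspartyl proteases, at -0.73, with 4 of 14 members lower (28.6%, against 4.07%) and none higher.

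Genes past 2-fold had a neighbour past 2-fold in the same direction more often than all placed genes did. Of 2206 higher genes with a position, 43.8% had an adjacent listed gene that was also higher, against 25.7% of all placed genes. Of 640 lower genes the share with a lower neighbour was 20.5%, against 7.84% of all placed genes. Neighbouring copies of a gene family can share reads, and their part in these shares was not tested.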
